A study of Mus musculus with 17 samples.

Results

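The 10 genes of insulin signalling and glucose uptake were followed in pWAT, perigonadal white adipose tissue, a visceral fat depot of mice. They are *Insr*, *Irs1*, *Irs2*, *Pik3r1*, *Akt2*, *Tbc1d4*, *Slc2a4*, *Slc2a1*, *Hk2* and *Mlxipl*, 10 of the 55401 genes in the deposited files, and they were chosen by name for their place in the pathway. The choice was made with earlier results of these data known. The study compared mice that lack every exon of *U90926*, a long non-coding RNA gene (U9-KO), with wild-type (WT) littermates from crosses of heterozygous parents, on the C57BL/6J strain and on standard chow. RNA-seq of whole pWAT gave 1 library for each of 5 WT females, 5 U9-KO females, 3 WT males and 4 U9-KO males, and according to the methods the mice were 16 weeks old. Whether the mice were fed or fasted at collection is not given in the sources used here. The knockout was not restricted to fat.

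Insulin binds its receptor, and the receptor passes the signal to the adaptor proteins Irs1 and Irs2, which recruit phosphatidylinositol 3-kinase and through it the kinase Akt2. In fat cells Akt2 phosphorylates Tbc1d4, which lets vesicles that carry the glucose transporter GLUT4, encoded by *Slc2a4*, reach the cell surface. Glucose that enters is trapped by hexokinase, and its products activate ChREBP, encoded by *Mlxipl*, a transcription factor that turns on genes of fatty acid synthesis. *Fasn* encodes fatty acid synthase, the enzyme that builds palmitate, and it served as the reference for fatty acid synthesis in each mouse. Most steps of the pathway are set by phosphorylation and by movement of proteins, which RNA levels do not measure.

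The values are normalized counts, which are read counts that the authors scaled per library and rounded. They sum to between 20243688 and 28620744 per library. *U90926* (ENSMUSG00000029409) was detected with a normalized count of 1 in WT female 3, the same in WT male 2, and with none elsewhere, so the libraries do not check the genotype labels. Fat cell markers were high in every library, with the 8 genes together at 288595 to 850064 normalized counts. WT female 4 and U9-KO female 1 stood apart by ovary markers, which summed to 77567 and 95395 normalized counts, and results in females are given with and without them where they differ. The 6 epididymis markers together stayed at or below 75 normalized counts. In whole tissue, fewer cells of a type and less RNA per cell cannot be told apart, and p-values measure the spread between these mice.

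The proximal steps were read first. *Insr* (ENSMUSG00000005534, GRCm38 chromosome 8, 3122061 to 3279617, minus strand), the insulin receptor, was among the steadiest of the 10 genes. Its normalized counts were 3428 to 5000 in WT females, 3549 to 4943 in U9-KO females, 3604 to 4289 in WT males and 4238 to 4907 in U9-KO males. Its coefficient of variation over the mice of one sex was 14.8% in females and 9.68% in males, close to the median of 14.9% and 10.2% over all genes with a mean of at least 100.

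*Irs1* (ENSMUSG00000055980, chromosome 1, 82233101 to 82291416, minus strand) and *Irs2* (ENSMUSG00000038894, chromosome 8, 10984681 to 11008458, minus strand) encode the adaptor proteins and behaved unlike each other. *Irs1* had normalized counts of 2635, 2124, 1361, 1735 and 1585 in WT females 1 to 5 and of 1634, 2289, 2332, 1433 and 1928 in U9-KO females 1 to 5. In males *Irs1* read 1489, 991 and 1113 in WT and 1341, 1326, 1578 and 1827 in U9-KO mice. The genotypes overlapped in each sex.

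*Irs2* read 1829, 1013, 2336, 1474 and 2147 in WT females and 813, 1086, 1214, 2781 and 1602 in U9-KO females. Its male values were 1004, 2471 and 3288 in WT and 1618, 1866, 2451 and 1088 in U9-KO mice. *Irs2* thus ranged over 3.42-fold in females and 3.27-fold in males, with overlap between the genotypes in both. Its coefficient of variation was 41.8% in males, above that of 98.6% of genes.

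*Pik3r1* (ENSMUSG00000041417, chromosome 13, 101680563 to 101768217, minus strand) encodes the regulatory subunit of the kinase that Irs proteins recruit. It read 10268, 13160, 6773, 6323 and 7351 in WT females and 9436, 12372, 13464, 9360 and 9948 in U9-KO females. In males it read 17346, 10950 and 10826 in WT and 18511, 21475, 17706 and 18914 in U9-KO mice. The U9-KO males all lay above the WT males, though WT male 1 was close to them, and the female groups overlapped. Such a lack of overlap between male genotypes, in either direction, was seen in 7.6% of all genes tested.

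*Akt2* (ENSMUSG00000004056, chromosome 7, 27591552 to 27640826, plus strand), the Akt kinase most tied to glucose uptake, spanned 4089 to 9740 in females and 6279 to 9874 in males. *Tbc1d4* (ENSMUSG00000033083, chromosome 14, 101442360 to 101609191, minus strand), the brake on GLUT4 vesicles that Akt2 releases, spanned 1575 to 4035 in females and 1430 to 2803 in males. For both genes the genotypes overlapped in each sex.

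Next came the transporters. *Slc2a4* (ENSMUSG00000018566, chromosome 11, 69942539 to 69948188, minus strand), the insulin-responsive transporter, read 6043, 6022, 2475, 1961 and 3863 in WT females and 3726, 6460, 9229, 3199 and 4976 in U9-KO females. In males it read 5784, 4156 and 3983 in WT and 4842, 4541, 4809 and 5711 in U9-KO mice. Females thus ranged over 4.71-fold and males over 1.45-fold. *Slc2a1* (ENSMUSG00000028645, chromosome 4, 119108711 to 119137983, plus strand), the transporter that does not need insulin, stayed between 285 and 452 in all 17 mice.

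*Hk2* (ENSMUSG00000000628, chromosome 6, 82725025 to 82774454, minus strand), the hexokinase of insulin-sensitive tissues, had the widest contrast between the sexes in its spread. It read 3124, 3902, 951, 972 and 1413 in WT females and 2435, 4336, 4877, 1161 and 2392 in U9-KO females. In males it read 4556, 3943 and 4323 in WT and 5048, 3548, 4355 and 4675 in U9-KO mice. Its coefficient of variation was 56.9% over females and 11.3% over males.

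*Mlxipl* (ENSMUSG00000005373, chromosome 5, 135089890 to 135138382, plus strand), which encodes ChREBP, read 6864, 6958, 1846, 1766 and 2935 in WT females and 4114, 6983, 12039, 2365 and 6824 in U9-KO females. In males it read 4961, 2902 and 4254 in WT and 4620, 4564, 4963 and 4132 in U9-KO mice. The same females were high or low in *Slc2a4*, *Hk2* and *Mlxipl*, with U9-KO female 3 highest and WT females 3 and 4 lowest in each.

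**Figure D1:**
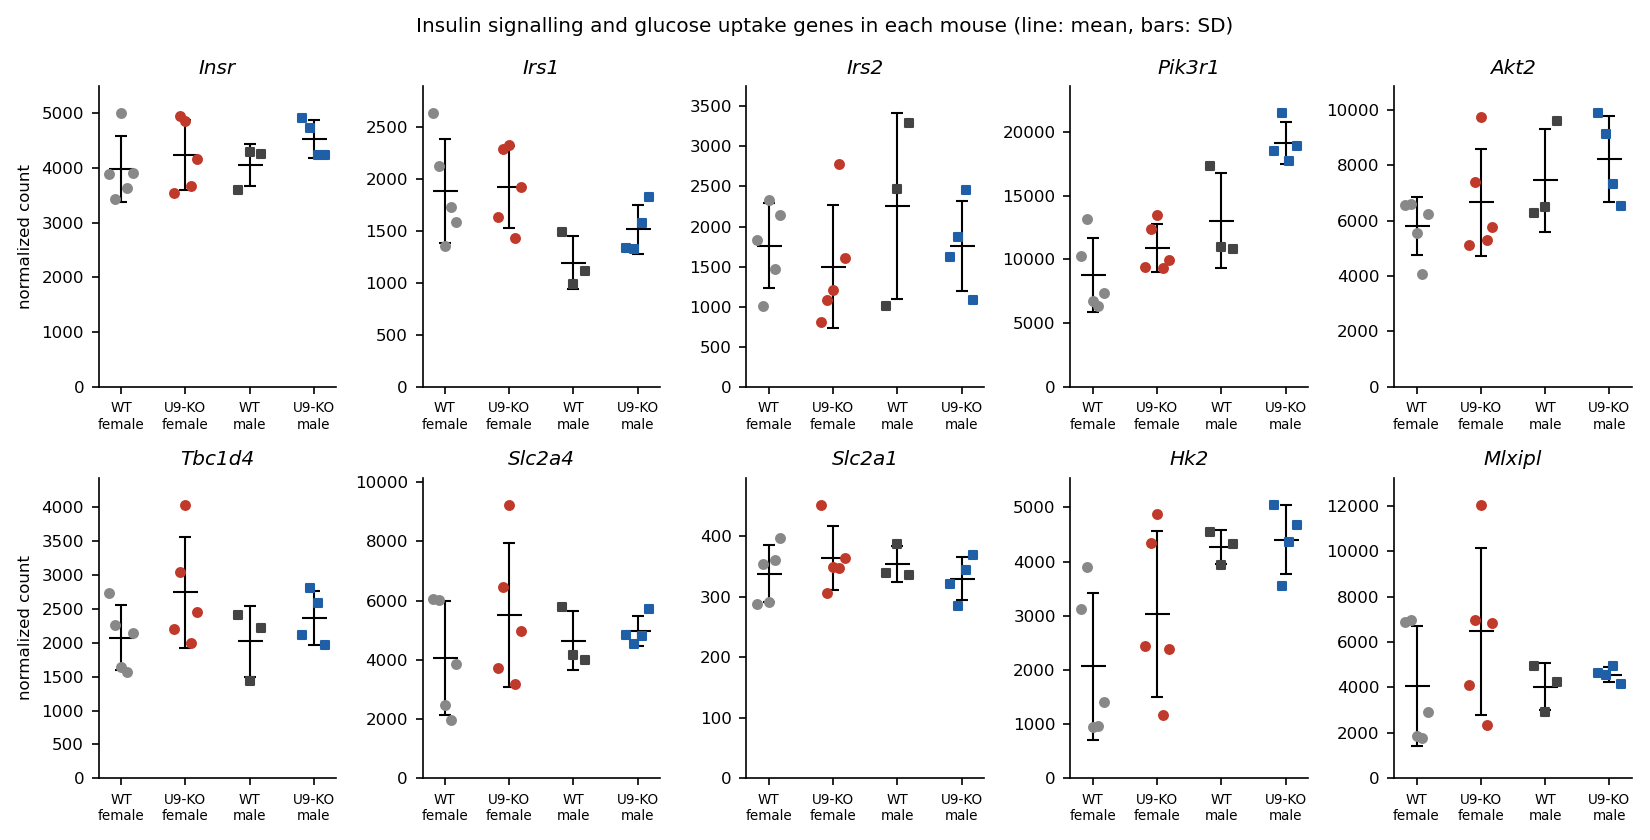
Normalized counts of the 10 genes in each mouse (points), by genotype and sex, with the mean and SD of each group of 3 to 5 mice. *Slc2a4*, *Hk2* and *Mlxipl* spread more widely among females than among males. Of the 10 genes *Pik3r1* in males alone shows no overlap between WT and U9-KO mice, which 7.6% of all genes tested showed in males.

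Levels between genes were compared per kilobase of exon, as normalized counts divided by the length of the merged exons. In females *Slc2a4* led at 1379 ± 632 per kilobase (SD, n = 10), followed by *Pik3r1* at 977 ± 254, *Mlxipl* at 951 ± 589 and *Akt2* at 874 ± 216. *Hk2* stood at 428 ± 244, and *Tbc1d4*, *Insr*, *Irs2* and *Irs1* followed between 314 and 208. *Slc2a1* was the lowest at 100.2 ± 14.2 per kilobase, and the step from *Irs1* to *Slc2a1* was the only one between neighbours whose ranges did not overlap.

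In males *Pik3r1* led at 1640 ± 405 per kilobase (SD, n = 7), followed by *Slc2a4* at 1389 ± 201, *Akt2* at 1106 ± 223, *Mlxipl* at 784 ± 128 and *Hk2* at 729 ± 82.2. Only the step from *Hk2* to *Insr*, at 315 ± 30.5, was free of overlap. *Irs2*, *Tbc1d4*, *Irs1* and *Slc2a1* made up the rest, from 311 down to 97.1 per kilobase. The transporter that needs insulin was thus listed above the one that does not in every mouse of both sexes.

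The relation to *Fasn* was tested next. *Fasn* (ENSMUSG00000025153, chromosome 11, 120805846 to 120824547, minus strand) read 423472, 398953, 18029, 38582 and 112571 in WT females and 353643, 429828, 931443, 29690 and 196207 in U9-KO females. In males it read 308595, 47950 and 102942 in WT and 203465, 219208, 233541 and 261989 in U9-KO mice. It therefore ranged over 51.7-fold in females and 6.44-fold in males, with both genotypes at its high and low end in females. In males the 2 lowest mice were both WT.

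In females 6 of the 10 genes rose with *Fasn* and 1 fell, where 12.2% of all 24824 genes tested were called in either direction, with 7.19% of all genes positive and 4.98% negative. Because the genes and the test were chosen with earlier results known, this contrast is a description and not independent support. The slopes are log2 changes for each doubling of *Fasn*, from limma fits across all genes over the 10 females with Benjamini-Hochberg adjustment. The steepest were those of *Mlxipl*, *Hk2* and *Slc2a4*. *Mlxipl* rose by 0.46 per doubling (SE 0.054, adjusted p = 0.000437), *Hk2* by 0.45 (SE 0.042, adjusted p = 0.000109) and *Slc2a4* by 0.32 (SE 0.048, adjusted p = 0.00206). *Hk2* was 46th of all genes in order of p.

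The signalling genes and the transporter gene *Slc2a1* had smaller slopes. *Tbc1d4* rose by 0.18 per doubling of *Fasn* (SE 0.034, adjusted p = 0.0061), *Pik3r1* by 0.16 (SE 0.036, adjusted p = 0.0137) and *Irs1* by 0.14 (SE 0.030, adjusted p = 0.0131) in the limma fit of females. *Irs2* fell by 0.21 (SE 0.062, adjusted p = 0.0463), the 1 gene of the 10 with a negative slope. *Akt2* had a slope of 0.12 (SE 0.038, adjusted p = 0.0567), *Slc2a1* of 0.01 (SE 0.035, adjusted p = 0.845) and *Insr* of 0.01 (SE 0.034, adjusted p = 0.942), none past the threshold of 0.05. The interval of the *Insr* slope ran from -0.07 to 0.08, so a slope as steep as that of *Hk2* lies outside it.

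**Figure D2:**
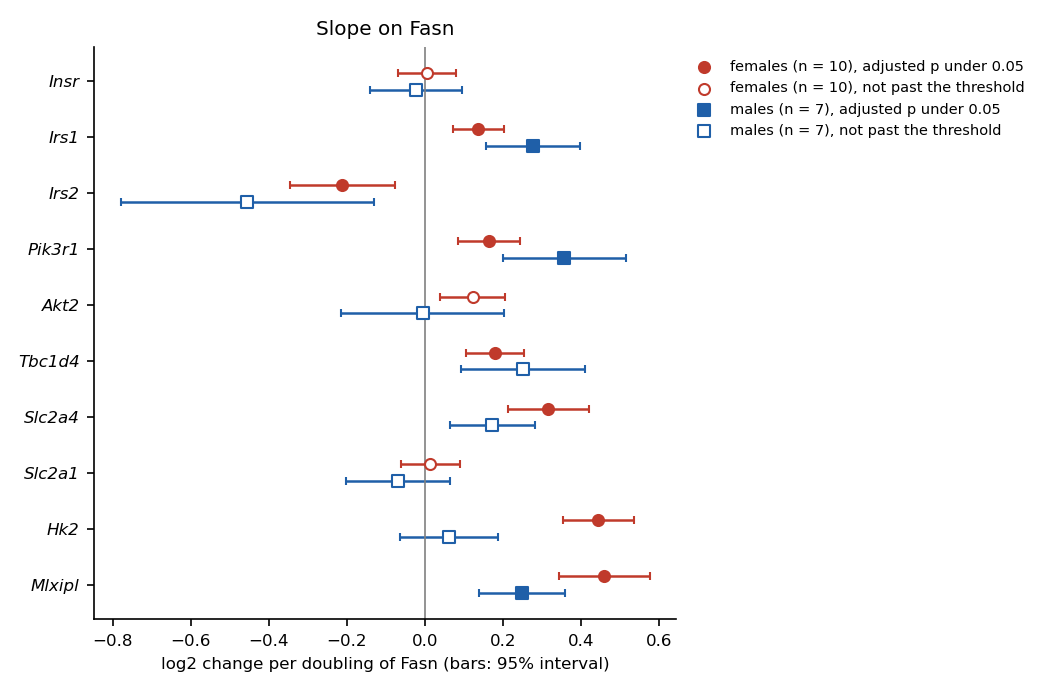
Slope on *Fasn* of each gene in log2 units per doubling of *Fasn*, for 10 females (circles) and 7 males (squares), with 95% intervals as bars and filled symbols where the adjusted p is under 0.05. In females *Hk2* and *Mlxipl* have the steepest positive slopes and *Irs2* the negative one, and in males *Hk2* lies near 0.

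Across the 10 females, *Hk2* and *Fasn* had a Pearson r of 0.957 and a Spearman rho of 0.976 on log2 values (each p = 4.0e-05, permutation test with 100000 resamples). *Mlxipl* reached r = 0.933 (permutation p = 0.00012) and rho = 0.939 (permutation p = 0.00025), and *Slc2a4* r = 0.896 (permutation p = 0.00048) and rho = 0.927 (permutation p = 0.0004). Without WT female 3 and U9-KO female 4, the 2 farthest from the median of *Fasn*, r was 0.958 for *Hk2*, 0.924 for *Mlxipl* and 0.926 for *Slc2a4*. For *Irs2* the r of -0.713 (permutation p = 0.0233, rho = -0.648 with permutation p = 0.0482) became -0.436 without those 2 mice, so that relation rests on them. The *Irs2* call was also lost with genotype in the fit (adjusted p = 0.0948) and without the trend (adjusted p = 0.0953). It held in 3 of the 10 limma fits that left out 1 mouse each, with adjusted p-values of 0.0263 to 0.146. The *Irs2* slope came to -0.30 per doubling (adjusted p = 0.00215) with fat cell markers in the fit. All 10 genes were examined in each sex, and the adjusted p-values of the limma fit stand for that family.

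**Figure D3:**
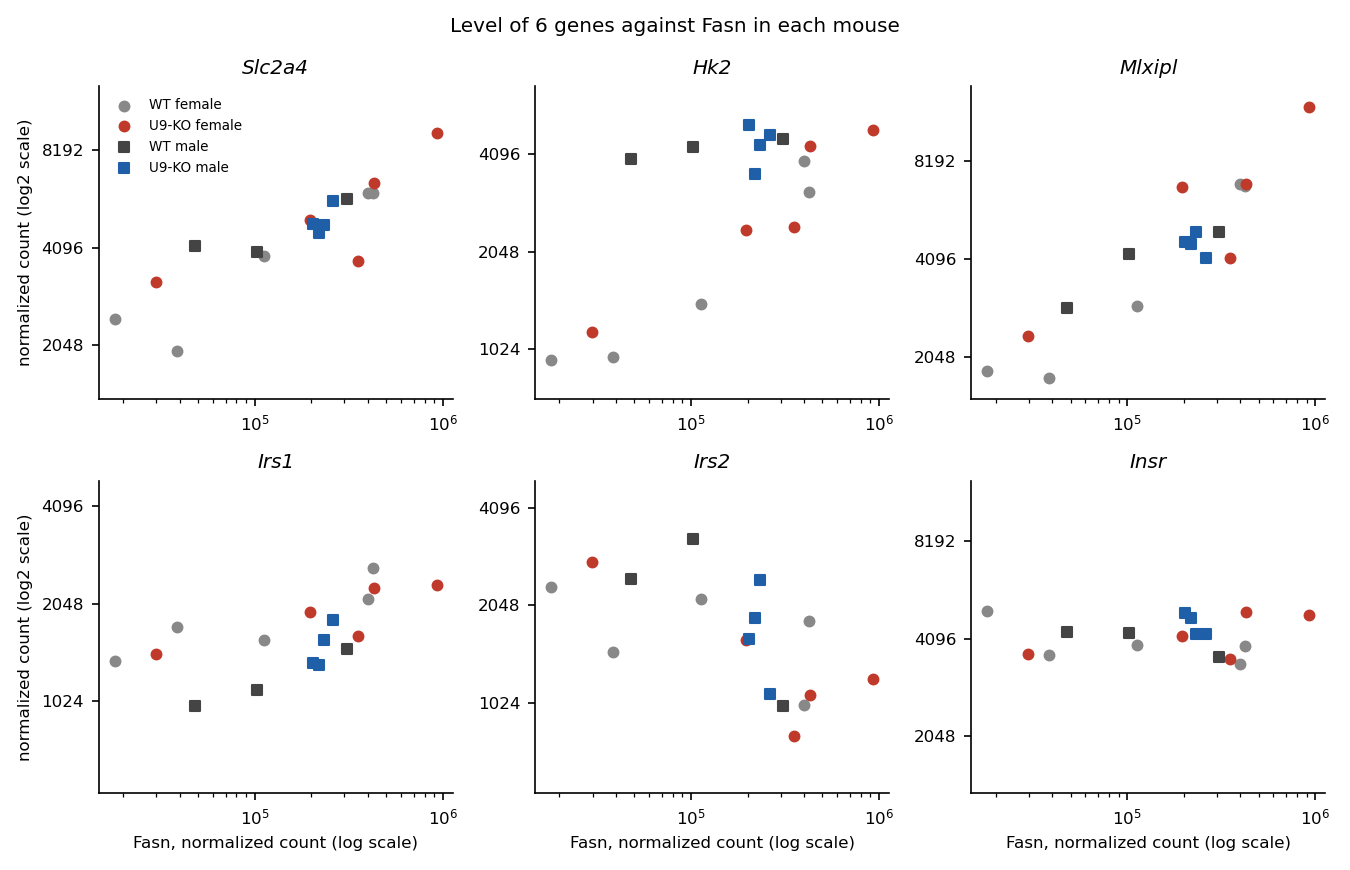
Normalized counts of 6 genes (log2 scale, each panel spanning the same fold range) against the normalized count of *Fasn* (log scale) in each of 17 mice, with circles for females and squares for males. *Slc2a4*, *Hk2*, *Mlxipl* and *Irs1* climb with *Fasn* in females, *Irs2* declines, and *Insr* has a female slope of 0.01 per doubling. Values are as deposited and appear to have been scaled within each sex.

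Fat cell markers had an r of 0.474 with *Fasn* across females (permutation p = 0.164, rho = 0.758 with permutation p = 0.0148), and their summed level ran from 309434 to 541348 in WT and from 288595 to 763066 in U9-KO females. With these markers in the fit, the slopes of *Hk2*, *Mlxipl* and *Slc2a4* were 0.41, 0.39 and 0.24, and 7 of the 10 genes were called. Ovary markers had an r of -0.02 with *Fasn* (permutation p = 0.95, rho = -0.08 with permutation p = 0.839), which became -0.579 without WT female 3 and U9-KO female 4, where that of fat cell markers became 0.676. Of single marker genes, 2 of 8 fat cell, 1 of 4 endothelial and 1 of 2 brown fat genes rose with *Fasn* across females. In the same fit 3 of 4 skeletal muscle and 1 of 4 macrophage genes fell. So did 1 of 4 mesothelium, 1 of 3 progenitor and 1 of 3 oviduct genes. None of the 13 ovary or 4 B cell genes passed. Apart from fat cells and ovary, the part of these cell types in the female slopes was not tested. With ovary markers in the fit, or without both ovary-rich females, 8 of the 10 genes were called, the additional one being *Akt2*. Calls over all genes also rose with ovary markers in the fit. For the fits with fat cell markers and without both ovary-rich females, the share over all genes is not reported here. Leaving out WT female 3, the mouse with the least *Fasn*, left 4 genes called, and *Irs1*, *Irs2* and *Pik3r1* no longer passed. The same 3 genes were lost without a filter on low values, and *Tbc1d4* and *Pik3r1* with quantile normalization (adjusted p = 0.0538 and 0.0847).

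In males 3 of the 10 genes passed the threshold against a background of 5.83% of 21929 genes, and all 3 rose (3.02% of all genes rose and 2.81% fell). *Pik3r1* rose by 0.36 per doubling of *Fasn* (SE 0.072, adjusted p = 0.0162), *Irs1* by 0.28 (SE 0.056, adjusted p = 0.0162) and *Mlxipl* by 0.25 (SE 0.050, adjusted p = 0.0171) in the limma fit. *Irs2* again had a negative slope, -0.46 (SE 0.15, adjusted p = 0.101). *Slc2a4* had 0.17 (SE 0.050, adjusted p = 0.068), *Tbc1d4* 0.25 (SE 0.073, adjusted p = 0.0679) and *Hk2* 0.06 (SE 0.058, adjusted p = 0.621).

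The male calls rested on WT male 2, the male with the least *Fasn*. Without it none of the 10 genes passed, and 20 of all genes did, with *Mlxipl* at 0.10 (adjusted p = 0.817), *Pik3r1* at 0.51 (adjusted p = 0.254) and *Irs1* at 0.36 (adjusted p = 0.347) per doubling. Over the 7 males r was 0.861 for *Pik3r1* (exact permutation p = 0.0417), 0.881 for *Irs1* (exact permutation p = 0.00516) and 0.882 for *Mlxipl* (exact permutation p = 0.0282). The Spearman rho was 0.429 (exact permutation p = 0.354), 0.857 (exact permutation p = 0.0238) and 0.536 (exact permutation p = 0.236) in the same order. Without WT males 2 and 3, the 2 farthest from the median of *Fasn*, r across the remaining males was -0.50 for *Pik3r1*, 0.51 for *Irs1* and 0.14 for *Mlxipl*. With fat cell markers in the fit none of the 10 genes passed either, and those markers had an r of 0.826 with *Fasn* across the 7 males (exact permutation p = 0.0538, rho = 0.536 with exact permutation p = 0.236). The 4 macrophage markers had an r of -0.847 (exact permutation p = 0.0226, rho = -0.536 with exact permutation p = 0.236), which became 0.165 without WT males 2 and 3, and 3 of the 4 fell with *Fasn*. The B cell markers had an r of -0.742 (exact permutation p = 0.0603, rho = -0.393 with exact permutation p = 0.396), which became 0.744 without those mice, and 1 of the 4 fell. The fat cell r became 0.77 without them. Of the 4 endothelial markers 2 fell. The part of these cell types in the slopes was not tested beyond these fits.

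A direct test compared the slopes of the sexes. The male slope of *Hk2* was lower than the female one by 0.38 per doubling of *Fasn* (SE 0.10, limma adjusted p = 0.148), and it was 228th of all genes in order of p. None of the 10 genes passed, where 0.152% of all 26288 genes did. For *Hk2* the interval of the difference, not adjusted for the number of genes, ran from -0.59 to -0.17. The estimate stayed between -0.42 and -0.36 when each of the 17 mice was left out in turn. The limma adjusted p ran from 0.0813 to 0.9998 over those fits, and 0 of them passed. *Hk2* spanned 3548 to 5048 in males although *Fasn* spanned 47950 to 308595 there.

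Starts of transcription are shown for *Irs1*, *Irs2* and *Mlxipl*, because the first pair had slopes of opposite sign and because ChREBP is known to use an upstream alternative first exon besides its usual one. The windows are the 250 bases before RefSeq starts on GRCm38.p6, which had entries for 8 of the 10 genes, and capitals mark the E-box CACGTG, the core letters read by ChREBP and other basic helix-loop-helix factors. *Irs1* is at chr1:82291440-82291689 and *Irs2* at chr8:11008930-11009179, both on the minus strand. *Mlxipl* has an upstream window at chr5:135089640-135089889 and a downstream one at chr5:135106641-135106890, both on the plus strand, with starts 17001 bases apart.
Irs1: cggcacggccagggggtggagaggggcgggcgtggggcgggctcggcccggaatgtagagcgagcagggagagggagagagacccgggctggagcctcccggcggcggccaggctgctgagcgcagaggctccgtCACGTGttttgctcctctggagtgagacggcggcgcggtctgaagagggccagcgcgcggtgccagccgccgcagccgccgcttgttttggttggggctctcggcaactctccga
Irs2: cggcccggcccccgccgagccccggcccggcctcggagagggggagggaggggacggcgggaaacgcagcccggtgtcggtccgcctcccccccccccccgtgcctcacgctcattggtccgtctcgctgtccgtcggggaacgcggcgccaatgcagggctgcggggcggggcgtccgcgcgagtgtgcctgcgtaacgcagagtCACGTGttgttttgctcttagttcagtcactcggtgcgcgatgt
Mlxipl upstream: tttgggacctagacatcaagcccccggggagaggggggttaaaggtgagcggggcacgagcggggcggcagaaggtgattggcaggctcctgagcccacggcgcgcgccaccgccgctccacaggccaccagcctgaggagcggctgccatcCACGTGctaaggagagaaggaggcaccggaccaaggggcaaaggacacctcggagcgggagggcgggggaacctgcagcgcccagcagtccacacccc
Mlxipl downstream: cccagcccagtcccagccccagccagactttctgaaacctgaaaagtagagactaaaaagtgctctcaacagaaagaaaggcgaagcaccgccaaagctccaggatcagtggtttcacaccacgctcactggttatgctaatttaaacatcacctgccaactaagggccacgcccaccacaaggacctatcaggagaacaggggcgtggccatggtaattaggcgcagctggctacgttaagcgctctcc

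The E-box, searched on both strands, lies 115 bases before the RefSeq start in *Irs1*, 44 in *Irs2* and 98 in the upstream window of *Mlxipl*. For *Irs1* and *Irs2* the bases after the RefSeq start matched no GENCODE transcript. Those 2 starts lie upstream of the GENCODE genes, which begin at 82291416 and 11008458 on the minus strand. The distances to the GENCODE starts are therefore longer, most of all for *Irs2*. The same letters are in 6.02% of all 32851 windows of this length. They are not in the downstream window of *Mlxipl* nor in the window of *Hk2*, and the forkhead letters GTAAACA (3.17% of all windows) are in no window of the 8 genes. The search is a description of letters and shows no binding. The deposited values sum all transcripts of a gene, so the 2 starts of *Mlxipl* cannot be separated.

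The rest of the pathway was read from lists of named genes. Of 27 other insulin signalling genes, 5 rose and 2 fell with *Fasn* in females, 25.9% of the list beside 12.2% of all genes, among them *Mtor*, the kinase of growth control, at 0.10 (SE 0.019, adjusted p = 0.00701). The others that rose were *Rps6kb1*, *Pdpk1*, *Rheb* and *Gsk3b*, at 0.06 to 0.08, and *Foxo3*, a transcription factor that insulin restrains, fell by 0.07 (adjusted p = 0.04), named after their values were seen. *Pde3b*, which breaks down cyclic AMP in response to insulin, had 0.01 (adjusted p = 0.952), not past the threshold. In males *Irs3*, another adaptor gene active in rodents, was the 1 gene called, 3.7% of the list beside 5.83% of all genes (0.21, adjusted p = 0.0146), named after its value was seen. The list's median slope in females of 0.04 stood beside -0.01 over all genes. The 10 genes had a median of 0.15.

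Of 17 genes of GLUT4 vesicle traffic, 4 rose and 2 fell in females, 35.3% of the list beside 12.2% of all genes. *Ralgapa2*, a GTPase-activating protein subunit that Akt can act on, rose by 0.28 (SE 0.037, adjusted p = 0.000957), and *Slc2a3*, another glucose transporter, fell by 0.26 (SE 0.060, adjusted p = 0.0162). *Sort1*, *Myo1c* and *Lnpep*, parts of the vesicles or of their movement, had slopes of 0.08, 0.12 and -0.05 and did not pass. The others that rose were *Rala*, *Ralgapb* and *Rab14*, at 0.06 to 0.08, and *Tbc1d1*, a relative of *Tbc1d4*, fell by 0.16 (adjusted p = 0.0184), named after their values were seen. In males 1 of the 17 passed, 5.88% beside the 5.83% of all genes, *Ralgapa2* at 0.23 (adjusted p = 0.0379).

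Of 15 genes that brake insulin signalling, 2 rose and 2 fell in females, 26.7% of the list beside 12.2% of all genes. *Enpp1*, a membrane protein that inhibits the receptor, fell by 0.31 (SE 0.074, adjusted p = 0.0188), and *Trib1*, a pseudokinase, rose by 0.27 (SE 0.053, adjusted p = 0.00811). *Pik3ip1*, an inhibitor of the kinase, fell by 0.26 (adjusted p = 0.00446), and *Ptpn1*, the phosphatase that switches off the receptor, rose by 0.10 (adjusted p = 0.018), both named after their values were seen. In males 1 of the 15 passed, 6.67% beside the 5.83% of all genes, *Dok1* at -0.37 (adjusted p = 0.0154), also named after its value was seen.

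The list of 19 hexokinase and glycolysis genes had 11 that rose and 1 that fell in females, with a median slope of 0.12, and 5 that rose and 1 that fell in males. These are 63.2% and 31.6% of the list, beside 12.2% and 5.83% of all genes. *Aldoa*, *Gapdh* and *Ldha* rose by 0.33, 0.25 and 0.32 in females and by 0.35, 0.26 and 0.33 in males, all past the threshold. *Eno1* rose by 0.31 in females (adjusted p = 0.000109) and had 0.16 in males (adjusted p = 0.0674). The 1 gene of this list that fell was *Hk1*, the hexokinase of most tissues, by 0.12 in females (adjusted p = 0.0117) and by 0.19 in males (adjusted p = 0.0317), named after its values were seen. *Hk1* and *Hk2* thus had slopes of opposite sign in females. *Pdha1*, which feeds pyruvate into the mitochondrion, rose by 0.34 in females and 0.30 in males.

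Of the ChREBP partners and targets other than *Fasn*, 11 of 15 rose and 1 fell in females and 10 of 14 rose in males. The called shares are 80% and 71.4%, beside 12.2% and 5.83% of all genes. *Acly* rose by 1.05 (SE 0.054) in females and 0.92 (SE 0.12) in males, *Elovl6* by 1.12 and 0.81, and *Acaca* by 0.67 and 0.82. They encode enzymes that make or lengthen fatty acids. The 1 that fell in females was *Arrdc4* (-0.10, adjusted p = 0.0441), named after its value was seen. *Scd1*, the desaturase, rose by 0.61 in females and had -0.21 in males (adjusted p = 0.234). The lists were chosen with results of these data known.

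**Figure D4:**
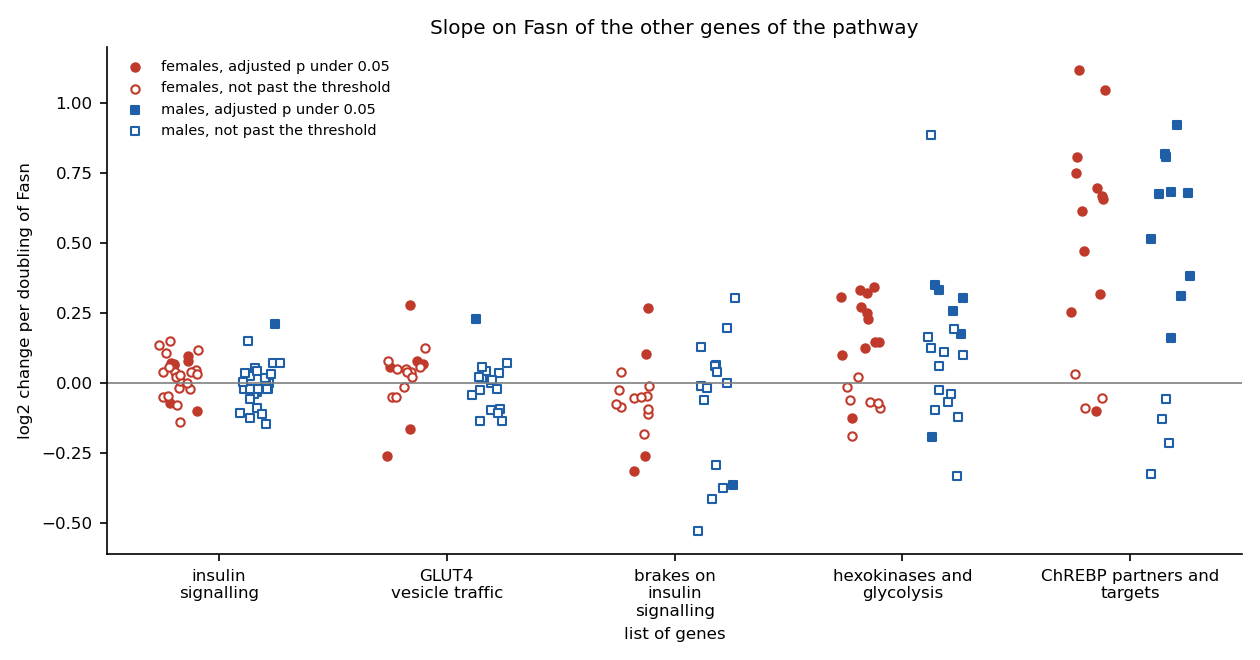
Slope on *Fasn* in log2 units per doubling for each gene of 5 lists, in females (circles) and males (squares), with filled symbols where the adjusted p is under 0.05. In females the insulin signalling list has a median slope of 0.04 and the GLUT4 traffic list of 0.05, with *Ralgapa2*, *Slc2a3* and *Tbc1d1* farther from 0, and the glycolysis and ChREBP lists have medians of 0.12 and 0.61.

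For each of the 10 genes, the genes with the highest r over the 10 females were listed among 11516 genes with a mean of at least 100 in each sex. *Slc2a4* was most like *Dynll2* (r = 0.988 in females, 0.869 in the 7 males), and *Hk2* most like *Gpd2* (0.988 and 0.263). *Mlxipl* was most like *Fem1a* (0.989 and 0.687) and *Irs1* most like *Nrip1* (0.989 and 0.586). *Irs2* was most like *Myl6* (0.976 and 0.06), with *Lynx1* next (0.961 and 0.946). The males were not used to pick these genes, and several of the female pairs were weak there.

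The comparison of genotypes asked whether loss of *U90926* moved these genes. In females none of the 10 passed in the limma fit, as none of all 24825 genes did (0% called, and 2.23% at an unadjusted p under 0.05), and the smallest adjusted p over all genes was 1. With DESeq2 and the same threshold, the paper reported some differentially expressed genes in each sex and none with the sexes together. The absence of calls here thus holds for limma on rounded normalized counts. *Mlxipl* was 6465 ± 3668 in U9-KO and 4074 ± 2631 in WT females (SD, n = 5 each), and its log2 fold change was 0.72 (SE 0.50) with an interval from -0.36 to 1.81. *Hk2* had 0.63 (SE 0.47), *Slc2a4* 0.47 (SE 0.36), *Tbc1d4* 0.39 (SE 0.21) and *Pik3r1* 0.36 (SE 0.20). *Irs2* had -0.30 (SE 0.31), and *Akt2*, *Slc2a1*, *Insr* and *Irs1* lay between 0.04 and 0.18.

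Of the 10 estimates 9 were thus above 0 in females with a median of 0.27, beside 0.00 over all genes. U9-KO females also had more *Fasn* on average, 388162 ± 340379 against 198321 ± 197687 (SD, n = 5 each), with overlap (exact permutation p = 0.31, two-sided). With *Fasn* in the fit the estimates of *Mlxipl*, *Hk2* and *Slc2a4* were 0.19, 0.11 and 0.11, and that of *Irs1* was -0.14. Groups overlapped for all 10 genes in females, and 0.238% of all genes showed no overlap. The exact permutation test of single genes gave p-values from 0.135 (*Tbc1d4*) to 0.913 (*Irs1*), where 0.00794 is the smallest it allows.

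In males none of the 10 genes passed in the limma fit, as none of all 21930 did (0% called, 7.6% at an unadjusted p under 0.05, smallest adjusted p 0.612). *Pik3r1* was 19152 ± 1628 in U9-KO (SD, n = 4) and 13041 ± 3729 in WT males (SD, n = 3), and its log2 fold change was 0.59 (SE 0.16). It was 147th of all genes in order of p, with an adjusted p of 0.612 by limma. Its groups did not overlap, which 7.6% of all genes showed, and the exact permutation p was 0.0571, the smallest that 4 against 3 mice allow. Without WT male 1 its log2 fold change was 0.81 (adjusted p = 0.0256, limma), and 71 genes in all were then called.

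*Irs1* had 0.35 in males (SE 0.15, limma adjusted p = 0.641), *Tbc1d4* 0.25, *Mlxipl* 0.21 and *Insr* 0.16. *Irs2* had -0.26 (SE 0.37) and *Slc2a1* -0.11 (SE 0.11). *Slc2a4* had 0.12 with an interval from -0.18 to 0.41, and *Hk2* 0.03 with an interval from -0.23 to 0.30. B cell markers summed to 295 to 730 normalized counts in WT and 214 to 243 in U9-KO males without overlap, and macrophage markers to 8911 to 15232 and 7148 to 10363 with overlap. None of the 4 genes of either list passed the threshold (smallest adjusted p 0.612, limma), while 4 B cell and 1 macrophage gene had an unadjusted p under 0.05 in that fit. Their part in these values was not tested. With *Fasn* in the fit the estimate of *Pik3r1* was 0.34 (adjusted p = 0.544), and those of *Slc2a4*, *Hk2* and *Mlxipl* turned to between -0.08 and -0.04.

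**Figure D5:**
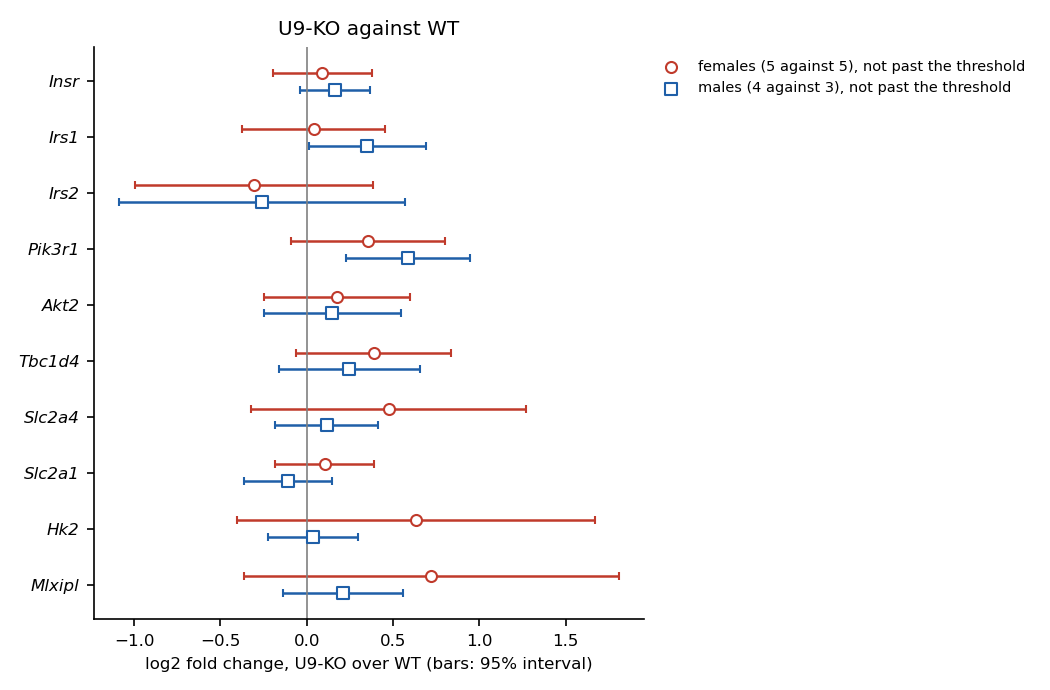
Log2 fold change of U9-KO over WT for each gene, in females (circles, 5 against 5 mice) and males (squares, 4 against 3 mice), with 95% intervals. All symbols are open because none passed the threshold, and the female intervals of *Hk2* and *Mlxipl* are the widest. The intervals are not adjusted for the number of genes. In males those of *Pik3r1* and *Irs1* lie above 0, where 7.6% of all genes had an unadjusted p under 0.05 in the limma fit.

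The difference between the genotype effects of the sexes passed for none of the 10 genes nor for any of 26289 genes (0% called, 3.46% at an unadjusted p under 0.05 in the limma interaction fit).

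Males and females were set side by side after rescaling, since the deposited values appear to have been scaled within each sex. Sex cannot be told apart from any separate handling of the sexes. Of the 10 genes 3 were higher and 1 lower in males, where 39.4% of 26077 genes were called, 16.6% higher and 22.7% lower. *Hk2* was higher by 1.08 on the log2 scale (SE 0.30, adjusted p = 0.0079), *Pik3r1* by 0.83 (SE 0.14, adjusted p = 0.000148) and *Akt2* by 0.45 (SE 0.14, adjusted p = 0.016), and *Irs1* was lower (-0.36, SE 0.14, adjusted p = 0.0455). The sexes overlapped for all 10, and 11.5% of all genes showed no overlap. The *Irs1* call held in 7 of the 17 fits that left out 1 mouse each, with adjusted p-values of 0.0188 to 0.118 over them, and that of *Akt2* was lost without WT male 3 (adjusted p = 0.0508). In WT mice alone *Hk2* was the 1 gene of the 10 that passed.

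Fat cell markers were higher in males too, 5 of 8 past the threshold with a median difference of 0.65, and 12 of 13 ovary markers were lower. Macrophage and endothelial markers were higher in males (3 of 4 called in each list, medians 1.02 and 0.36), and B cell markers were lower (4 of 4, median -1.11). Of 4 skeletal muscle markers 3 were called lower (median -1.90), while 1 had an estimate above 0 and did not pass. As deposited, the skeletal muscle sums were low and overlapped, with medians of 379 in WT and 127 in U9-KO females. Those in males were 247 in WT and 344 in U9-KO mice. The part of all these markers in the differences was not tested. With fat cell markers in the fit, *Hk2* had 0.41 (adjusted p = 0.462) and *Akt2* 0.04 (adjusted p = 0.88), while *Pik3r1* at 0.48 and *Irs1* at -0.65 still passed and *Tbc1d4* was called at -0.47 (adjusted p = 0.0159). *Slc2a4* had 0.23 without these markers (adjusted p = 0.465) and -0.49 with them (adjusted p = 0.117). In values as deposited *Akt2* had 0.34 (adjusted p = 0.0672).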

How the data were processed

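Stranded poly(A) libraries were made from pWAT of 17 mice. Reads were trimmed (trim_galore), mapped to GRCm38 (STAR 2.7.3a), counted per gene (summarizeOverlaps, Union) and tested by the authors in DESeq2 1.28.1, with versions from the submitters' processing notes. The deposited score of each gene is a read count that the authors scaled by a size factor and rounded. Size factors appear to have been set within each sex. In 2 male libraries the column header and the label disagree on the replicate number, and the label was followed. Steps between low values put the counted read pairs at about 19.7 to 27.6 M per library, an estimate. A table of the whole series repeats the values and was not used.

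Symbols and positions came from GENCODE release M21 (55141 of 55401 genes matched), and promoter windows from RefSeq. Because the values are not counts, limma 3.58.1 in R 4.3.3 (lmFit, eBayes with a trend) was run on log2(value + 1), which understates the change of low genes. Genes had to total 10 or more in the mice fitted, with Benjamini-Hochberg adjustment and a threshold of 0.05. Fits compared genotypes within each sex, slopes on log2 *Fasn*, both interactions, and the sexes after rescaling by the median ratio over 17657 autosomal genes. Exact permutation tests of single genes were two-sided (scipy 1.17.1, numpy 2.4.6 and pandas 2.3.3 in Python 3.11.15). Replicates were distinct, with 24469 or more genes unequal in each of 29 within-group pairs. The fits were tested on simulated data.

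The 10 genes, the further lists and the tests were chosen with earlier results of these data known. Named genes were the 10, *Fasn*, and from each list the 3 of highest level plus those past the threshold, up to 5, and for each of the 10 the 3 genes most like it, of which the first or second are given for 5. Some results of listed genes are not reported here. Alternatives covered the filter, pseudocount, trend, quantile normalization, covariates, the replicate block and leaving out each mouse. Those without both ovary-rich females, with *Fasn* as a covariate, and with fat cell markers between the sexes were chosen after seeing the data.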

Additional observations from a re-analysis of the deposited data

How the results depend on the processing

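All values here come from limma. The 7 female calls on *Fasn* became 4 without a filter, and the 3 male calls became 0 without a filter, 0 without the trend, 0 with fat cell markers and 1 with genotype in the fit. Leaving out each mouse gave 4 to 8 calls among the 10 genes in females and 0 to 4 in males. The 4 calls between the sexes became 2 without a filter and 1 in WT mice only, and 2 to 5 when leaving out each mouse. *Pik3r1* between male genotypes was called only without WT male 1 (0 to 1 calls).

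Over all genes, calls on *Fasn* in females numbered 1585 without a filter, 1998 without the trend, 1356 with quantile normalization, 1905 with genotype, 4763 with ovary markers and 1506 to 3794 when leaving out each mouse. In males they numbered 70, 0 and 26 without a filter, without the trend and with fat cell markers, and 20 to 1121 when leaving out each mouse. Slopes that differed between the sexes numbered 321, 10 and 16 without a filter, without the trend and with quantile normalization, and 5 to 97 when leaving out each mouse. Genes called between genotypes numbered 2 (no filter) and 1 (no trend) in females, 16 and 1 in males with 0 to 71 when leaving out each mouse, and 3 without a filter for the interaction. Between the sexes 4964 genes were called in WT mice only and 5534 with fat cell markers.

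These estimates changed sign. Between female genotypes *Irs1* was -0.00052 with fat cell markers, -0.14 with *Fasn* in the fit, and -0.068 to 0.17 when leaving out each mouse. Between male genotypes with *Fasn* in the fit, *Irs2* was 0.28, *Tbc1d4* -0.0024, *Slc2a4* -0.081, *Hk2* -0.039 and *Mlxipl* -0.052. When leaving out each male, *Hk2* ran from -0.035 to 0.13, *Mlxipl* from -0.011 to 0.38 and *Irs2* from -0.76 to 0.097. The female slope of *Insr* was -0.041 with quantile normalization, -0.0026 with genotype, -0.029 with fat cell markers and -0.020 to 0.054 when leaving out each mouse, and that of *Slc2a1* -0.019 to 0.029. The male slopes of *Insr* and *Slc2a1* were 0.0030 and 0.0040 with fat cell markers, and leaving out each mouse gave -0.090 to 0.030 for *Insr*, -0.093 to 0.029 for *Slc2a1* and -0.39 to 0.061 for *Akt2*. Between the sexes *Mlxipl* was -0.087 with quantile normalization, -0.066 as deposited and -0.83 with fat cell markers, *Slc2a1* -0.040 as deposited, *Tbc1d4* 0.075 in WT mice and *Slc2a4* -0.49 with fat cell markers. Leaving out each mouse gave *Tbc1d4* -0.068 to 0.076 and *Mlxipl* -0.097 to 0.20. The cause was not tested.

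Deviations of same-numbered mice of the genotypes had correlations between -0.445 and 0.11 (females) and between -0.117 and -0.0105 (males). These values give no sign that the numbers pair the mice. Females of unlike number ran from -0.421 to 0.609, so the check cannot exclude a pairing. With the replicate block 0 of the 10 genes and 0 of all genes were called in either sex. The estimate of *Pik3r1* in males was 0.59 with the block.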
